A study of Mus musculus with 11 samples.

Results

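Intergenic stretches of open chromatin that lie close to genes were examined in aged and young mouse haematopoietic stem cells (HSCs), the bone marrow cells from which all blood lineages derive. The set was formed from the peaks of an ATAC-seq data set that the authors annotated as distal intergenic and whose nearest transcription start site was less than 20 kb away. It held 12206 of 94410 peaks (12.9%), or 36.3% of the 33664 distal intergenic peaks. ATAC-seq cuts accessible DNA with the Tn5 transposase, so that the number of reads in a peak reads out how open that stretch is.

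DNA outside genes but near a start site often carries enhancers, silencers and insulators, which transcription factors occupy when nucleosomes are displaced. In blood stem cells such elements are bound by haematopoietic factors, and their accessibility tends to be more specific to a cell type than that of promoters. The gene with the nearest start site is only a label for such a peak: enhancers can skip genes, and none of the values here test which gene a peak acts on.

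The study compared 3 libraries of old AThi HSCs, 3 libraries of old ATlo HSCs and 5 libraries of young HSCs. The labels use AThi for the GFPlo and ATlo for the GFPhi fraction of old HSCs under the heading of autophagy status, while the young HSCs were unfractionated. All groups carried the genotype Gfplc3/Gfplc3, a GFP-LC3 reporter in which GFP is lost as autophagosomes are degraded, and all were isolated from bone marrow at steady state. Age in numbers, sex, the number of animals behind a library and the isolation day of each library (there were 2 such days) are not stated by the sources at hand. In the comparisons with young HSCs, age therefore cannot be told apart from these factors or from the sort by GFP. The 2 old fractions came in pairs. Where nothing says that libraries came from separate animals, the p-values reflect only how much these libraries vary.

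The values came from 3 of the authors' deposited tables, 1 for each pair of groups, and these hold no value for a single library. A level below is the authors' deposited mean normalised read count of a peak over the libraries, a change is the authors' deposited log2 fold change with its SE, and a peak counts as called at the authors' adjusted p under 0.05. Every level, change and adjusted p of a single peak given below was read from the authors' deposited tables. The depth of each library is unknown from these files, and the spread between libraries enters only through the SE. A low level gives a wide SE: the median SE of the change between AThi and young HSCs was 0.58 in the lowest of 5 equal bins of these intergenic peaks by level and 0.20 in the highest. As a check of the labelled cell type, 7 of 8 HSC marker genes had a promoter peak, with levels between 28.6 and 414, and Ly6a had none. Of 23 markers of other blood, stromal and endothelial cells, 14 had a promoter peak, with levels between 10.6 and 232. The T cell markers, Ms4a1, Cd79a, Ly6g, Csf1r, Hba-a1 and Cdh5 were among those without. Those with a peak included Pf4 (232), Klf1 (227), Pdgfra (214) and Itga2b (173), above the HSC markers Slamf1 (28.6), Tek (63.1) and Procr (77.1). The median level was 102 for the HSC markers and 75.5 for the others. These levels do not measure how pure the cells were. Promoters of 2 of these 23 other-type markers were called higher in AThi and in ATlo than in young HSCs, Gp1bb (1.01 in AThi and 0.95 in ATlo, log2) and Cxcl12 (1.27 and 0.97). Of the HSC markers, the promoters of Kit (-0.37 in AThi and -0.51 in ATlo) and Mecom (-0.38 and -0.50) were called lower in ATlo and did not pass in AThi HSCs. Their levels were high, 342 for Kit and 414 for Mecom. These 2 values are to be read beside the promoter peaks with a level of at least 356. Those had median log2 changes of -0.22 in AThi and -0.31 in ATlo against young HSCs. The part of the marker promoters in the results below was not tested.

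For 24 genes, predicted genes left out, an intergenic peak and the strongest promoter peak, lying over a start site of the gene, were both called higher in AThi and in ATlo HSCs than in young HSCs. The promoters of the 4 with the smallest p in AThi HSCs among those with a single RefSeq promoter window are shown, because here the distal and the proximal peak of 1 gene moved together. Gcgr encodes the glucagon receptor, Myo16 an unconventional myosin, Fibin a secreted protein named for fin bud initiation in zebrafish, and Slc35f2 a solute carrier. The sequences are the 250 bases before the annotated start, from RefSeq on GRCm38.p6, written 5′ to 3′ on the strand of the gene, at chr11:120530477-120530726 (plus strand), chr8:10153661-10153910 (plus), chr2:110362994-110363243 (minus) and chr9:53771285-53771534 (plus). Capitals mark the GC box GGGCGG on either strand.
Gcgr: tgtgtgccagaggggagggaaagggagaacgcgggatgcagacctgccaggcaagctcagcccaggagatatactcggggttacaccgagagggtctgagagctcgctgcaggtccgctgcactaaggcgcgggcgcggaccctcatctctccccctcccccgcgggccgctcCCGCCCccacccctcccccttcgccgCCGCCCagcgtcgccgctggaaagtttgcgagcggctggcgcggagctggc
Myo16: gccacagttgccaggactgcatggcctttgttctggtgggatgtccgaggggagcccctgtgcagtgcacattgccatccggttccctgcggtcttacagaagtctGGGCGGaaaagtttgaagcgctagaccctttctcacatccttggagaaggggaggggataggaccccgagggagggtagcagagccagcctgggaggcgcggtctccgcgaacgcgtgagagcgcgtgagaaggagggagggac
Fibin: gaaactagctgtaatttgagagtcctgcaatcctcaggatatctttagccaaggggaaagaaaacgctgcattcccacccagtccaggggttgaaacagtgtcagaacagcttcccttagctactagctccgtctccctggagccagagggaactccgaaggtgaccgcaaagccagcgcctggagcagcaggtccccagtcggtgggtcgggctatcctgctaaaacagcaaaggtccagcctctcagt
Slc35f2: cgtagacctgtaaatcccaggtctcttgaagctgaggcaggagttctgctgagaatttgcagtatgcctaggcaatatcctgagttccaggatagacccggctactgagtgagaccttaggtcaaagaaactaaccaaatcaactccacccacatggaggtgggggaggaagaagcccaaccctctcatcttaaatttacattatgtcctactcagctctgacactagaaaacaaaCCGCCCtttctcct

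The 4 windows differ widely in composition. That of Gcgr is 70.4% G and C with 24 CpG dinucleotides, that of Myo16 is 62% with 14, that of Fibin is 54.8% with 7, and that of Slc35f2 is 47.6% with 3. Matches to 5 motifs were looked for on both strands. The GC box was found at 2 places in Gcgr, at 1 place each in Myo16 and Slc35f2, and at 0 in Fibin, and it occurs in 32.7% of 32851 promoter windows of this length. None of the other 4 motifs was found in these 4 windows. The AP-1 motif, spelled TGANTCA, occurs in 6.75% of all windows. The GATA motif, searched for as AGATAA, occurs in 9.99% of them. The RUNX motif was written as TGTGGT and occurs in 14.0% of windows. The E-box, for which the letters CACGTG were used, occurs in 6.02%. The intergenic peaks are on the newer build mm39, whose sequence was not used here, so no letters of the peaks themselves are printed.

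The accessibility of the 4 pairs was as follows. The peak 14.6 kb upstream of Gcgr (chr11:120406379-120406923, level 99.3) was 2.64-fold higher in AThi than in young HSCs (change 1.40 ± 0.21, log2 and SE, with an adjusted p of 3.57e-09 from the authors' deposited table) and 2.04-fold higher in ATlo than in young HSCs (adjusted p = 6.06e-05). Its start-site peak changed by 1.14 in AThi and 1.00 in ATlo HSCs on the log2 scale. The peak 13.8 kb upstream of Myo16 (chr8:10189307-10190085) was 3.33-fold higher in AThi and 3.62-fold higher in ATlo than in young HSCs, and its start-site peak changed by 2.14 and 1.96 on the log2 scale in AThi and in ATlo HSCs. The peak 10.7 kb downstream of the Fibin start (chr2:110181838-110182595) was 4.06-fold higher in AThi and 3.61-fold higher in ATlo than in young HSCs, with log2 changes of 2.25 in AThi and 2.21 in ATlo HSCs at the start site. Slc35f2 had 4 intergenic peaks, and 3 of them were higher in AThi than in young HSCs, the nearest (chr9:53671647-53672488) by 2.41-fold (change 1.27 ± 0.29, log2 and SE, with an adjusted p of 0.000395 from the authors' deposited table). The Slc35f2 start-site peak changed by 0.94 in AThi and 0.92 in ATlo HSCs on the log2 scale.

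The 12206 intergenic peaks were assigned to 7488 genes. Of these genes 4493 (60.0%) had 1 such peak and 1102 had 3 or more. Upstream of the start site lay 8925 peaks (73.1%) and downstream of it 3281 (26.9%); the downstream ones began past the end of the gene, by a median of 5.15 kb. Distances to the start site ranged from 3002 to 19997 bp with a median of 10.4 kb. Widths ranged from 201 to 2864 bp with a median of 507 bp, against 547 bp over all peaks. The median level was 24.3, with quartiles of 13.5 and 47.3, against a median of 27.5 over all peaks and 122 over promoter peaks within 1 kb of a start site. The nearest gene was protein-coding for 9900 peaks (81.1%), a lncRNA for 1727 and a miRNA for 331, while 10 peaks lay next to 6 identifiers without a symbol. The name with the most peaks was Rnu6, a U6 snRNA symbol shared by copies on 9 chromosomes, with 29 peaks. It was followed by the testicular protease gene Prss39 with 9 peaks, and by the lncRNA gene A630001O12Rik and Socs3, which encodes a feedback inhibitor of cytokine signalling, with 8 each. The levels of the Socs3 peaks lay between 44.4 and 256, and none of the 8 was called in AThi or in ATlo against young HSCs, the smallest adjusted p being 0.055 in AThi HSCs.

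The 10 most accessible peaks of the set had levels of 585 to 1078. The highest level belonged to a peak 7.36 kb downstream of the start of Fosb (chr7:19035478-19036614), a subunit of the AP-1 transcription factor. Its log2 change was 0.24 ± 0.18 SE in AThi and 0.24 ± 0.18 SE in ATlo against young HSCs, and neither passed the test. A pair of peaks upstream of Mir23a, a miRNA gene, had levels of 800.1 and 585, and neither was called. Among the 10 most accessible peaks 2 were called. The peak 3.59 kb from the start of H3f3b, which encodes the replacement histone H3.3, had a level of 641 and was 1.83-fold higher in AThi (change 0.87 ± 0.26, log2 and SE, with an adjusted p of 0.0133 from the authors' deposited table) and 1.93-fold higher in ATlo than in young HSCs (change 0.95 ± 0.26, log2 and SE, with an adjusted p of 0.00651). The H3f3b promoter peak changed by -0.15 in AThi and -0.28 in ATlo HSCs and was not called. The peak 4.89 kb upstream of Klf9, a Krüppel-like factor, had a level of 732 and was lower in ATlo than in young HSCs by -0.44 ± 0.13 (log2 and SE, adjusted p = 0.017), a call that was lost when the strongest promoters were set to no change. The other members of these 10, near Foxj2, Utrn, the clock gene Per1, Gm4285 and Pdzk1ip1, had log2 changes between -0.34 and -0.11 in both comparisons and were not called.

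Between old AThi and young HSCs more of the intergenic peaks were higher in the old cells than lower. In AThi HSCs 638 peaks (5.23%) were higher and 328 (2.69%) were lower than in young HSCs, by the authors' deposited DESeq2 test, with p-values adjusted over the peaks for which the authors gave an adjusted p. Over all 94410 peaks, 7.42% were called higher and 2.69% lower, or 10.1% in either direction, so the share of higher calls lay below the background and the share of lower calls at it. The called peaks lay near 605 genes for the higher and 307 genes for the lower ones. The median log2 change was 1.20 among the higher and -1.04 among the lower calls, and -0.09 over the whole set, against -0.04 over all peaks. Changes of at least 2-fold made up 418 of the higher and 174 of the lower calls.

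The split between higher and lower calls depended on the scaling of the libraries. As deposited, 66.0% of the called intergenic peaks were higher in AThi and 73.0% in ATlo than in young HSCs. The 1811 strongest promoter peaks, those with a level of at least 356, had a median log2 change of -0.22 in AThi against young HSCs and of -0.31 in ATlo against young HSCs. When those medians were set to 0, AThi HSCs had 1279 higher and 123 lower intergenic peaks (91.2% higher), and ATlo HSCs had 1680 higher and 48 lower (97.2% higher). Among all peaks the share of higher calls then came to 94.0% in AThi and 98.2% in ATlo HSCs. Which scaling is right could not be told from these tables, and changes below are given as deposited.

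**Figure D1:**
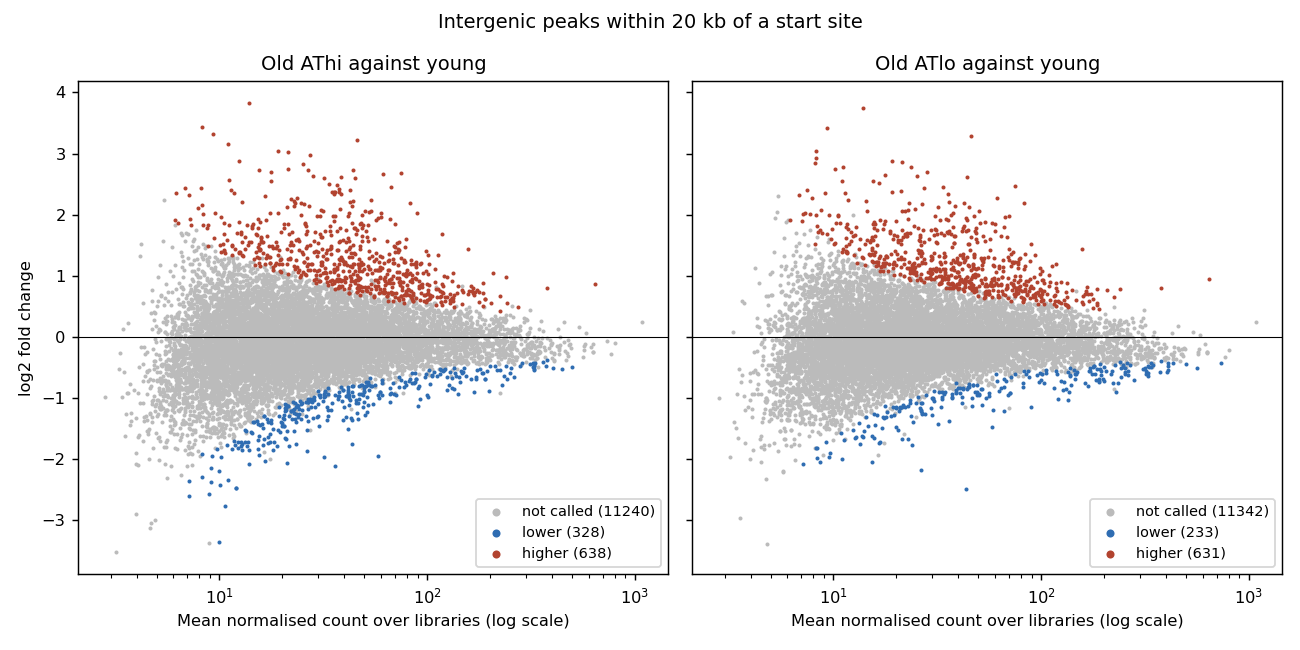
Log2 fold change (vertical axis) against the mean normalised read count over libraries (horizontal axis, log scale) for the 12206 intergenic peaks within 20 kb of a start site, old AThi against young HSCs on the left and old ATlo against young HSCs on the right. Red and blue points are peaks called higher and lower at an adjusted p under 0.05 (638 and 328 in AThi, 631 and 233 in ATlo); called peaks of low level show large changes and called peaks of high level mostly small ones.

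Predicted genes and changes under 2-fold left out, the peak with the smallest adjusted p in AThi against young HSCs was assigned to Vwa5b1. It lay 11.6 kb upstream of this gene for a von Willebrand factor A domain protein (chr4:138362853-138363557, level 89.7). From the mean level and both changes, group levels of 156 in AThi, 109.7 in ATlo and 38.1 in young HSCs can be worked out; these are approximate, since a fitted group level need not equal the mean over libraries. The Vwa5b1 peak was 4.08-fold higher in AThi than in young HSCs (change 2.03 ± 0.20, log2 and SE, 95% interval 1.63 to 2.43, with an adjusted p of 7.15e-20 from the authors' deposited table). The peak 15.3 kb upstream of Gpr26, an orphan G protein-coupled receptor, had approximate levels of 74.2 in AThi, 67.9 in ATlo and 11.1 in young HSCs. It showed the largest fold among the 12 higher peaks with the smallest p, 6.67-fold in AThi against young HSCs (change 2.74 ± 0.31, log2 and SE, with an adjusted p of 6.74e-16 from the authors' deposited table).

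Some of the other 12 higher peaks in AThi against young HSCs had nearest genes with known roles in NF-κB signalling or transcription. The peak 9.0 kb upstream of Bcl3 (chr7:19565689-19566352), an atypical IκB protein that binds NF-κB subunits, was 3.91-fold higher (change 1.97 ± 0.24, log2 and SE, with an adjusted p of 1.75e-13). The peak 13.8 kb upstream of Gimap3, an immunity-associated GTPase, was 4.62-fold higher. Of transcription factor genes, Foxd1 had a peak 11.6 kb downstream that was 5.48-fold higher (chr13:98502364-98502871) and Bhlhe23 a peak 19.2 kb upstream that was 4.75-fold higher, both in AThi against young HSCs. The Foxd1 promoter peak was higher as well, by 2.09 on the log2 scale (with an adjusted p of 3.7e-11 from the authors' deposited table). Further peaks among these 12 lay near Cep126 (6.12-fold), Mrgprh (5.61-fold), Kbtbd11 (5.35-fold), the ribosomal protein gene Rps4x (4.68-fold) and the oxytocin receptor gene Oxtr (4.39-fold).

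The 12 lower peaks with the smallest p in AThi against young HSCs had log2 changes between -2.11 and -1.06. A pair of neighbouring peaks upstream of the zinc finger gene Zfp658, at chr7:43203884-43204616 and chr7:43202468-43203337, had the smallest adjusted p values, with log2 changes of -1.96 ± 0.29 SE (adjusted p = 1.91e-09) and -2.11 ± 0.36 SE (adjusted p = 4.21e-07), as the authors' deposited table gives them. Another called peak of the same stretch of chromosome 7 was assigned to Cd33, a sialic acid-binding receptor of myeloid cells. It changed by -1.68 ± 0.54 SE in AThi against young HSCs (adjusted p = 0.0242), and the Cd33 promoter by -1.07 (adjusted p = 5.7e-05). The peak 14.1 kb upstream of Csf1r (chr18:61223592-61224520), the receptor for macrophage colony-stimulating factor, had approximate levels of 22.1 in AThi, 13.3 in ATlo and 74.5 in young HSCs. Its change was -1.75 ± 0.32 in AThi against young HSCs (log2 and SE, with an adjusted p of 3.57e-06 from the authors' deposited table).

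The remaining lower peaks lay near 9 further genes. In AThi against young HSCs the log2 change was -2.07 for the peak upstream of Slc25a3, the mitochondrial phosphate carrier, -1.97 near Rnu3a, a U3 small nucleolar RNA gene, and -1.87 upstream of Cd83, a surface protein of mature dendritic cells. It was -1.51 upstream of Serpinh1, a collagen chaperone, -1.36 at Lrrc1, -1.35 at Rasa3, a Ras GTPase-activating protein, -1.34 at Hdgf, a heparin-binding growth factor, -1.23 at Mir760 and -1.06 at Exo5, an exonuclease. All 12 kept their call in AThi HSCs when the medians of the strongest promoters were set to 0.

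Between old ATlo and young HSCs the intergenic peaks again had more higher than lower calls. In ATlo HSCs 631 peaks (5.17%) were higher and 233 (1.91%) lower than in young HSCs, by the authors' deposited test, against 6.75% higher, 2.49% lower and 9.24% in either direction over all peaks. Both shares lay below the background. The higher peaks lay near 608 genes and the lower ones near 215, with median log2 changes of 1.15 and -0.87. Changes of at least 2-fold were found in 383 of the higher and 87 of the lower calls. The median over the set was -0.08, against -0.03 over all peaks. Both comparisons with young HSCs use the same 5 young libraries, so their lists are not independent of each other, and 1248 peaks were called in at least 1 of them.

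In ATlo HSCs the peak upstream of Gpr26 had the smallest adjusted p, being 6.11-fold higher than in young HSCs (change 2.61 ± 0.31, log2 and SE, with an adjusted p of 2.28e-14 from the authors' deposited table). Those upstream of Bcl3 (3.60-fold), Vwa5b1 (2.88-fold), Oxtr (3.86-fold) and Bhlhe23 (3.67-fold) were also among the 12 higher peaks with the smallest p. Peaks listed here but not among the 12 of AThi HSCs lay near Akr1b3, the aldose reductase gene (6.90-fold in ATlo and 4.82-fold in AThi, each against young HSCs), and Adrb1, the β1-adrenergic receptor gene (6.49-fold in ATlo and 6.23-fold in AThi). Others lay near Slamf8, a SLAM family receptor gene (5.48-fold in ATlo), the keratin gene Krt7 (5.08-fold), Mir684-1 (3.92-fold), the inositol trisphosphate receptor gene Itpr2 (3.13-fold) and Krtdap (2.71-fold). All of these were called higher in AThi HSCs as well.

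Among the 12 lower peaks chosen by smallest p in ATlo HSCs, the Csf1r peak had the lowest adjusted p. Its change was -2.49 ± 0.35 against young HSCs (log2 and SE, with an adjusted p of 2.52e-10 from the authors' deposited table). Csf1r itself had no promoter peak. The Zfp658 peaks changed by -1.48 and -1.38, Cd83 by -2.19, Rnu3a by -1.43 and Exo5 by -1.21 in ATlo against young HSCs. Further peaks of these 12 lay near P4ha2, a collagen prolyl hydroxylase (-1.77), the growth factor gene Fgf2 (-1.68), Tbc1d23 (-1.29), the small nucleolar RNA gene Snora28 (-1.19), the immunity-associated GTPase Gimap6 (-1.03) and the phosphodiesterase Pde10a (-1.02). The Pde10a peak changed by -0.53 in AThi against young HSCs and did not pass there (adjusted p = 0.0583). Gimap6 and Gimap3 belong to a cluster on chromosome 6, where the peak at chr6:48676924-48677984 was lower and that at chr6:48761583-48762094 higher in AThi and in ATlo than in young HSCs.

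**Figure D2:**
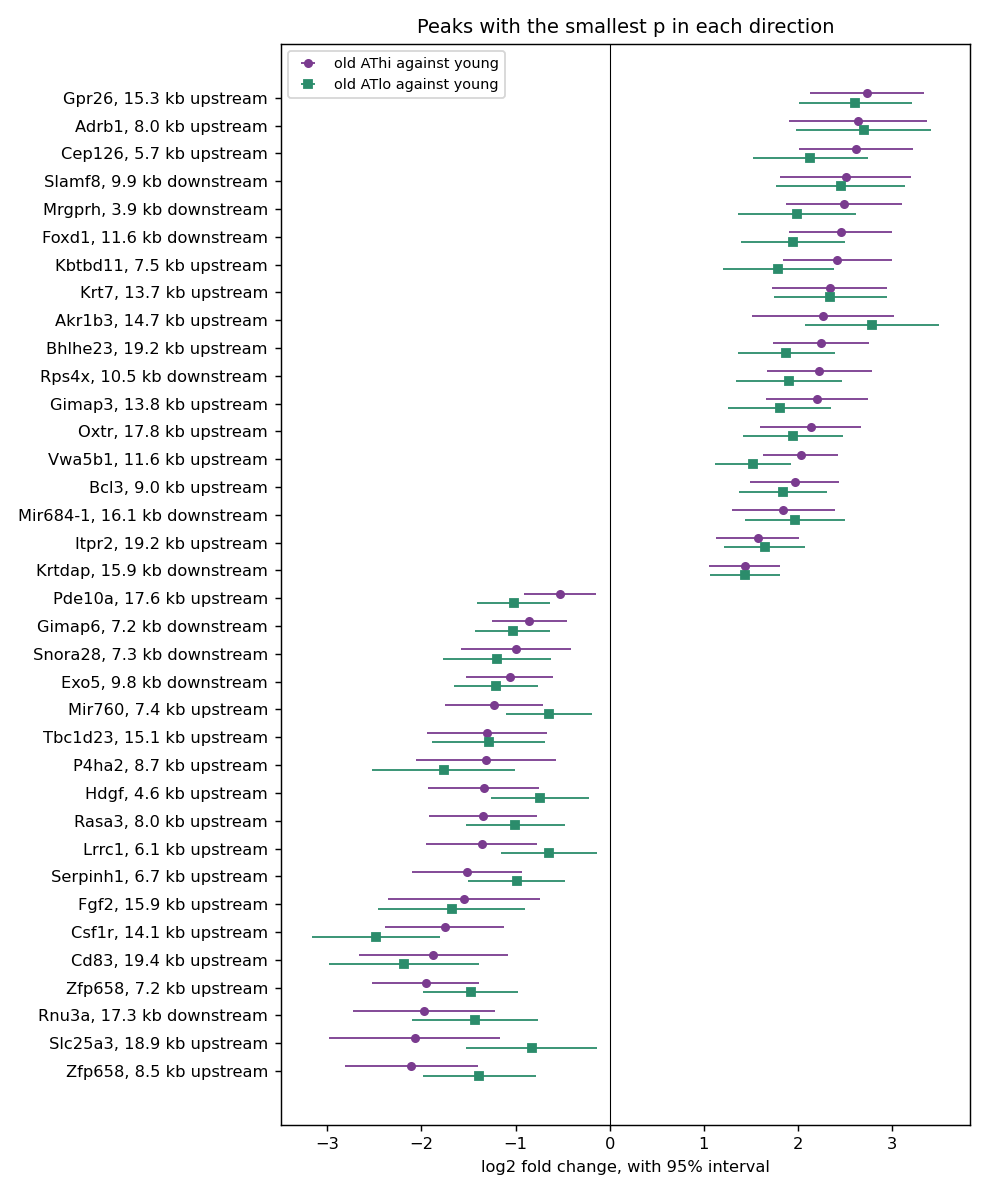
Log2 fold change (horizontal axis) with 95% intervals of intergenic peaks from among the 12 with the smallest p in either direction in either comparison with young HSCs; circles are old AThi against young and squares, drawn beneath them, old ATlo against young. Labels give the nearest gene and the distance to its start site, and for each peak drawn both estimates lie on the same side of 0, with Gpr26 at 2.74 and 2.61 and Csf1r at -1.75 and -2.49.

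Between old AThi and old ATlo HSCs no intergenic peak passed the authors' DESeq2 test, and none of all 94410 peaks did, a background of 0%. The smallest adjusted p of that deposited table was 0.999998. At an unadjusted p under 0.05 there were 227 intergenic peaks (1.86%), 79 higher and 148 lower in AThi than in ATlo HSCs, against 1683 (1.78%) over all peaks, 687 higher and 996 lower. The median log2 difference of the set was -0.0031, with a median SE of 0.40. Both shares of peaks at an unadjusted p under 0.05 lay below the share that this cut gives when nothing differs. The reason for this was not tested. Whether the authors' fit took the pairs of old fractions into account is not stated. The lack of calls therefore does not show that the fractions are alike.

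The smallest unadjusted p of the whole AThi against ATlo table, 0.00019, belonged to an intergenic peak 14.7 kb upstream of Pou4f3 (chr18:42512262-42512915), a POU transcription factor gene of sensory cells. Its difference was -1.31 ± 0.35 SE in AThi against ATlo HSCs (95% interval -1.99 to -0.62). In the 2 old fractions its changes against young HSCs were -0.52 in AThi and 0.78 in ATlo, neither of which passed. The next lower ones lay near Fam133b (-2.80), Borcs6 (-2.88), Edem1 (-0.81) and the Wnt receptor gene Fzd2 (-0.99). The 5 higher ones with the smallest p lay near Ccdc80 (2.63), BE949265 (0.63), Unc93a2 (1.41), Slc24a4 (1.25) and Rnf182 (1.00). Their levels in the authors' deposited table ran between 7.18 for Ccdc80 and 81.6 for BE949265, and the largest differences, those of Ccdc80, Borcs6 and Fam133b, were at levels of 7.18, 9.97 and 12.1. Among the peaks named above for the comparisons with young HSCs, the Vwa5b1 peak differed between AThi and ATlo HSCs by 0.50 (95% interval 0.09 to 0.92) and the Csf1r peak by 0.73 (95% interval -0.07 to 1.54), with neither passing after adjustment.

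Lists of genes with roles in stem cells and blood were then followed through the set. With the whole table as background at 7.42% higher and 2.69% lower in AThi HSCs and at 6.75% higher and 2.49% lower in ATlo HSCs, the lists are described by their counts, and no list was tested as a whole. Some genes are in 2 lists. A list's median change is to be read beside the median of all peaks, -0.04 in AThi and -0.03 in ATlo HSCs.

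Of 34 genes of HSC identity, 21 had an intergenic peak in the set, 36 peaks in all. In AThi HSCs 3 peaks were higher and 0 lower than in young HSCs, and in ATlo HSCs 2 were higher and 0 lower. With the median of the strongest promoters set to 0, called the promoter scaling below, 5 were higher in AThi and 8 in ATlo HSCs, and 0 were lower. The peak 4.46 kb upstream of Slamf1 (chr1:171589215-171590242), which encodes CD150, a surface marker used to sort HSCs, was 1.49-fold higher in AThi (change 0.57 ± 0.17, log2 and SE, with an adjusted p of 0.0155 from the authors' deposited table) and 1.50-fold higher in ATlo than in young HSCs (adjusted p = 0.0111). Peaks at Hlf, a transcription factor of HSCs, and Angpt1, a ligand of the Tie2 receptor, were called higher in AThi HSCs. The changes (log2 and SE) were 1.43 ± 0.50 for Hlf (level 10.5, authors' adjusted p = 0.0456) and 0.84 ± 0.27 for Angpt1 (level 39.0, adjusted p = 0.0235). In ATlo HSCs the values for Hlf and Angpt1 were 1.06 and 0.50 and did not pass. The peak at Lmo2, a bridging factor of blood transcription complexes, was higher in ATlo HSCs by 0.88 ± 0.25 (adjusted p = 0.01), and its value in AThi HSCs was 0.50.

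Of 35 genes known as markers of HSC ageing, 21 had 40 peaks. In AThi HSCs 8 were higher and 0 lower than in young HSCs, and in ATlo HSCs 6 were higher and 2 lower. With the strongest promoters set to 0 the counts were 15 higher and 0 lower in AThi and 17 higher and 0 lower in ATlo HSCs. The list's median change was 0.20 in AThi and 0.33 in ATlo HSCs. This list draws on published ageing signatures and was compiled with earlier results of these data known, so its direction is not independent evidence. The peak near Nupr1, a stress-response regulator, had a level of 376 and was 1.74-fold higher in AThi (change 0.80 ± 0.15, log2 and SE, with an adjusted p of 1.21e-05 from the authors' deposited table) and 1.74-fold higher in ATlo than in young HSCs. Peaks at the integrin gene Itga6 (3.60-fold), the guanine deaminase gene Gda (2.61-fold) and the matrix metalloproteinase gene Mmp14 (2.25-fold) were higher in AThi HSCs. Itgb3, the integrin β3 gene, had adjoining peaks that were 1.65-fold and 2.80-fold higher in AThi HSCs. Both peaks called lower in ATlo HSCs lay upstream of Klrb1c, which encodes NK1.1 (-0.70 and -0.49), and both lost the call when the strongest promoters were set to no change. Another Klrb1c peak was higher in AThi HSCs by 0.77 ± 0.26 SE.

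Autophagy, the sorting criterion of the old fractions, was represented by 28 peaks of 18 genes out of 43. In AThi HSCs 2 were higher and 0 lower than in young HSCs, and in ATlo HSCs 3 were higher and 0 lower, with list medians of -0.28 and -0.12. The peak 16.5 kb from the start of Tfeb, the master transcription factor of lysosomal genes (chr17:48113191-48114507), was 1.61-fold higher in AThi and 1.60-fold higher in ATlo than in young HSCs, with adjusted p values of 0.00765 and 0.00792 in the authors' deposited tables. The strongest Tfeb promoter peak, which lay at another start of the gene 46.3 kb from the one the distance was measured from, was lower, by -0.44 in AThi and -0.43 in ATlo HSCs (adjusted p = 0.038 and 0.042). With a level of 450 it was one of the strongest promoters, whose median changes were -0.22 in AThi and -0.31 in ATlo HSCs. The peak upstream of the autophagy receptor gene Optn was 2.58-fold higher in AThi and 2.10-fold higher in ATlo HSCs. The peak at Atg14, a subunit of the autophagy PI3-kinase complex, was 3.04-fold higher in ATlo HSCs and had a level of 9.74.

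Glycolysis and mitochondria gave 33 peaks of 20 genes out of 40. In AThi HSCs 1 was higher and 2 lower than in young HSCs, and in ATlo HSCs 1 was higher and 1 lower. Under the promoter scaling the counts were 2 higher and 1 lower in AThi and 4 higher and 0 lower in ATlo HSCs. The peak upstream of the glucose transporter gene Slc2a3 was 2.58-fold higher in AThi and 1.93-fold higher in ATlo HSCs. The peak upstream of the aldolase gene Aldoa changed by -1.37 in AThi and -1.08 in ATlo HSCs, of which only the AThi call held with the strongest promoters set to 0. The peak upstream of the lactate dehydrogenase gene Ldha changed by -1.09 in AThi HSCs, and that call was lost under the same scaling.

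Cytokine and JAK-STAT signalling gave 57 peaks of 26 genes out of 44, with 4 higher and 6 lower in AThi and 4 higher and 5 lower in ATlo HSCs, each against young HSCs. With the strongest promoters set to 0 the counts turned to 10 higher and 2 lower in AThi and to 9 higher and 1 lower in ATlo HSCs, so the balance of this list depends on the scaling. Among receptors, the Csf1r peak described above was lower. Both called peaks upstream of Ifnar2, a chain of the type I interferon receptor, were lower in AThi HSCs, by -0.69 and -0.59, and the one at chr16:91151109-91152549 was also called in ATlo HSCs (-0.67). With the strongest promoters set to 0, that ATlo call and the AThi call of -0.59 were lost. The peak at Il6st, the shared gp130 receptor chain, was 3.10-fold higher in AThi and 2.70-fold higher in ATlo HSCs. Of the kinases, Tyk2 had a peak that was 2.33-fold higher in AThi (adjusted p = 1.21e-05) and 2.26-fold higher in ATlo HSCs.

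AP-1 and other immediate early genes had more peaks than any other list, 75 in 26 genes of 36. In AThi HSCs 4 were higher and 3 lower than in young HSCs, and in ATlo HSCs 4 were higher and 1 lower, or 14 higher and 1 lower in AThi and 14 higher and 0 lower in ATlo HSCs with the strongest promoters set to 0. The peak 6.29 kb upstream of Batf2, an AP-1 family factor, was 4.75-fold higher in AThi (change 2.25 ± 0.36, log2 and SE, with an adjusted p of 6.92e-08 from the authors' deposited table) and 4.18-fold higher in ATlo HSCs. The peak near the phosphatase gene Dusp1 was 1.70-fold and that near the zinc finger gene Klf2 2.30-fold higher in AThi HSCs, and both were higher in ATlo HSCs. The peak 3.61 kb upstream of Zfp36, an mRNA decay factor, was lower in AThi HSCs by -0.94 ± 0.22 SE (adjusted p = 0.00044). Peaks at Egr1 (1.21) and Egr3 (-0.61), both zinc finger factors, were called in opposite directions in ATlo HSCs, and the Egr3 call was lost with the strongest promoters set to 0.

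The NF-κB and TNF list held 33 peaks of 16 genes out of 30, with 2 higher and 1 lower in AThi and 2 higher and 1 lower in ATlo HSCs, or 3 higher and 1 lower in AThi and 5 higher and 1 lower in ATlo HSCs with the strongest promoters set to 0. As deposited, the higher ones were the Bcl3 peak given above and a peak 11.1 kb upstream of Rel, an NF-κB subunit, 2.83-fold higher in AThi and 2.28-fold higher in ATlo HSCs. The Rel promoter was lower, by -0.57 in AThi and -0.67 in ATlo HSCs (adjusted p = 0.005 and 0.00056 in the authors' deposited tables). Its level of 419 also placed it among the strongest promoters, with medians of -0.22 in AThi and -0.31 in ATlo HSCs. The lower one lay upstream of Traf1, a TNF receptor adaptor (-1.83 in AThi and -2.05 in ATlo HSCs).

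In the TGF-β, BMP and Wnt list, with 37 peaks of 21 genes out of 37, 3 peaks were higher and 0 lower in AThi and 2 were higher and 0 lower in ATlo HSCs, or 8 higher in AThi and 9 higher in ATlo HSCs with the strongest promoters set to 0. The receptor gene Bmpr1a had a peak 5.65 kb upstream that was 2.36-fold higher in both old fractions than in young HSCs, and an adjoining one that was 3.19-fold higher in ATlo HSCs. Of the downstream genes, Smad1, a signal transducer of BMP receptors, and Id2, an inhibitor of bHLH factors, had peaks that were 1.84-fold and 2.02-fold higher in AThi HSCs. In ATlo HSCs these 2 had folds of 1.56 and 1.72 and did not pass. The cell cycle list (20 peaks of 11 genes out of 30) had 1 called peak in each comparison, near Cdkn1c, the inhibitor p57 that holds HSCs in quiescence, 2.95-fold higher in AThi and 2.60-fold higher in ATlo than in young HSCs. Chromatin regulators (31 peaks of 18 genes out of 41) had 0 calls in AThi HSCs. In ATlo HSCs they had 1 higher peak, at Tet2 (3.63-fold, level 10.8). The 3 lower ones lay at Dnmt3a (-1.73, level 9.26), Tet3 (-0.56) and Chd4 (-0.43). All 3 lower calls were lost with the promoters set to 0. Under that scaling 1 peak was called higher in AThi HSCs, where none was called as deposited, and 1 in ATlo HSCs.

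Adhesion and homing genes had 44 peaks of 22 genes out of 29, with 3 higher and 2 lower in AThi and 2 higher and 1 lower in ATlo HSCs. With the strongest promoters set to 0 the counts were 10 higher and 0 lower in AThi and 8 higher and 0 lower in ATlo HSCs. Besides the integrin peaks of Itga6 and Itgb3, a peak at Itga5, the fibronectin receptor subunit, was 1.63-fold higher in ATlo HSCs. Those at Cdc42, a small GTPase that acts on the actin cytoskeleton (-1.02), and Cd47, a signal against phagocytosis (-0.54), were lower in AThi HSCs, and that at Selplg, the P-selectin ligand (-0.80), in ATlo HSCs. None of these 3 lower calls held under the promoter scaling.

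Lists of lineage genes were followed as a sign of other cells. Myeloid genes had 43 peaks of 24 genes out of 32, with 2 higher and 4 lower in AThi and 1 higher and 3 lower in ATlo HSCs, and with the lowest list medians, -0.38 in AThi and -0.32 in ATlo HSCs. With the strongest promoters set to 0 these counts were 2 higher and 3 lower in AThi and 3 higher and 2 lower in ATlo HSCs. The lower peaks included Csf1r and the peak 13.7 kb upstream of Adgre1, the macrophage antigen F4/80 (-0.98 in AThi and -0.61 in ATlo HSCs, the ATlo call being lost with the promoters set to 0). The higher calls included a peak 3.71 kb upstream of Csf2ra, which changed by 0.66 in AThi and 1.00 in ATlo HSCs. Another Csf2ra peak, 16.0 kb upstream, was called lower in AThi HSCs (-0.81), a call lost with the promoters set to 0. Near the Fc receptor gene Fcgr3 a downstream peak of level 200.1 changed by -0.72 in ATlo HSCs (adjusted p = 7.74e-05) and by -0.38 in AThi HSCs, where it did not pass. Lymphoid genes had 24 peaks of 13 genes out of 34, with 1 higher and 0 lower in AThi and 0 higher and 3 lower in ATlo HSCs. The lower ones were those of Klrb1c and a peak at the adhesion receptor gene Cd2 (-0.83), all lost under the promoter scaling, which gave 3 higher and 0 lower in AThi and 4 higher and 0 lower in ATlo HSCs. Megakaryocyte and erythroid genes (25 peaks of 15 genes out of 32) had 2 higher peaks in AThi HSCs, both at Itgb3, and 0 calls in ATlo HSCs, or 4 and 1 higher peaks in AThi and in ATlo HSCs under that scaling. Stromal and endothelial genes (23 peaks of 14 genes out of 30) had 1 higher peak in AThi HSCs, at the collagen gene Col1a2 (2.30-fold), and 1 in ATlo HSCs, at the chemokine gene Cxcl12 (1.78-fold), or 4 and 3 higher peaks under that scaling. In bulk libraries a change in the mix of cells and a change within HSCs give the same readout.

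Where several peaks of the set lay near the same gene, they did not always move together. The set had 2995 genes with at least 2 peaks. In AThi against young HSCs 60 genes had at least 2 called peaks, of which 32 genes had only higher, 18 only lower and 10 both. In ATlo against young HSCs there were 47 such genes, of which 23 had only higher, 15 only lower and 9 both. The same count was not made over all peaks, so these numbers have no background to be read against. The most called peaks at a gene were 3. In AThi HSCs the genes with 3 included Slc35f2, described above, Gm4832 (3 lower of 4 peaks) and Atoh8, a bHLH factor gene (1 higher and 2 lower of 4).

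In ATlo HSCs Trim27, Aurkb and Fcgr4 each had 3 peaks that were lower than in young HSCs, out of 5 peaks each. At Aurkb, the Aurora B kinase gene, the most accessible of them (chr11:68930818-68932236, level 323) changed by -0.59 ± 0.14 (log2 and SE, with an adjusted p of 0.00164 from the authors' deposited table). At Trim27, a RING finger protein gene, the 3 changes lay between -0.90 and -0.60. At Fcgr4, an Fc receptor gene on chromosome 1, the 3 called peaks lay 14.0 to 18.9 kb downstream of the start and changed by -0.86 to -0.63. They adjoin the lower peak assigned to Fcgr3, so neighbouring genes share this stretch.

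The peaks of the set were set beside the other annotation classes. Among the 15285 intergenic peaks at 20 to 100 kb from a start site 7.51% were higher and 1.77% lower in AThi than in young HSCs, and among the 6173 at 100 kb and beyond 12.1% were higher and 1.12% lower. For the nearby intergenic peaks these shares were 5.23% and 2.69%, the lowest share of higher calls in AThi HSCs among the 10 classes. In ATlo HSCs 5.17% of the nearby intergenic peaks were higher and 1.91% lower, against 6.59% and 1.13% at 20 to 100 kb and 11.8% and 0.648% at 100 kb and beyond. Promoter peaks within 1 kb had 7.33% higher and 4.60% lower in AThi HSCs, and 5.75% higher and 6.87% lower in ATlo HSCs. The promoter flanks at 1 to 3 kb were close to the set. They had 6.14% higher and 3.74% lower in AThi HSCs, and 5.35% and 2.46% in ATlo HSCs. Their median log2 changes were -0.09 in AThi and -0.08 in ATlo HSCs. Of the 173 peaks just past a gene end, 6.36% were higher in AThi and 5.20% in ATlo HSCs. These differences between classes were not tested, since peaks of the same libraries are not replicates. The far intergenic peaks have lower levels (a median of 16.5 against 24.3), and the promoters higher ones. The part of level in the differences between classes was not tested.

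**Figure D3:**
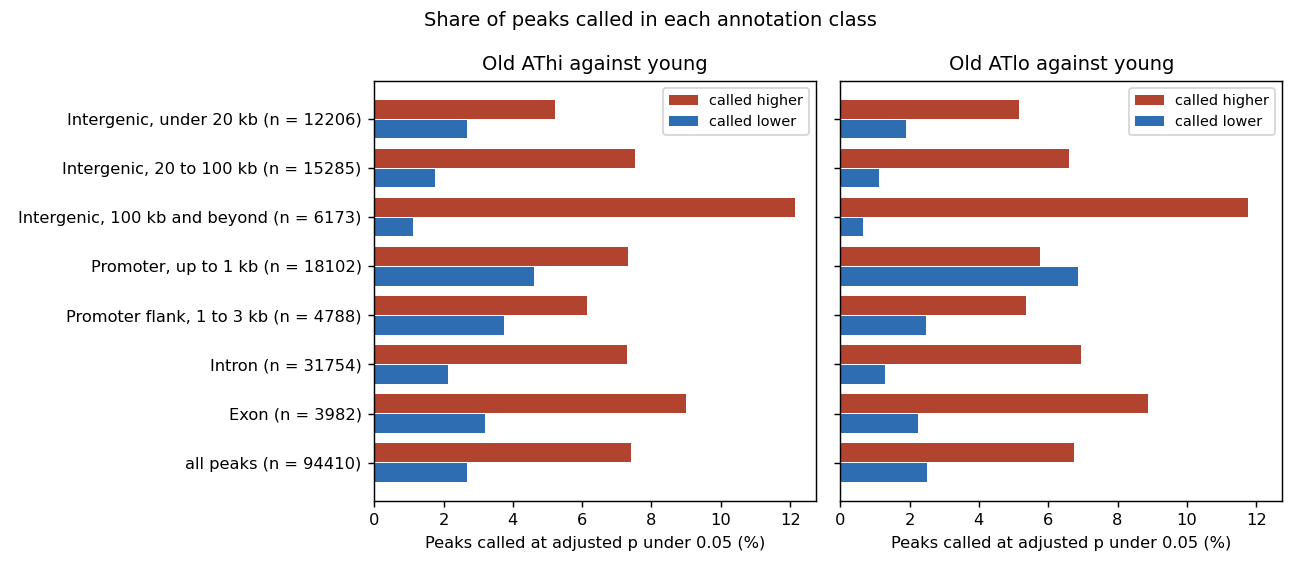
Share of peaks (in %) called higher (red) and lower (blue) at an adjusted p under 0.05 in each annotation class, with old AThi against young HSCs on the left and old ATlo against young HSCs on the right; n is the number of peaks. Intergenic peaks under 20 kb stand at 5.23% higher in AThi HSCs, below the 7.51% at 20 to 100 kb and the 12.1% at 100 kb and beyond.

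Within the set, the share of calls followed the level of a peak more than its distance. In the lowest of the 5 level bins 2.17% of the peaks were called in AThi against young HSCs, and in the highest 13.9%. In ATlo HSCs these shares were 2.25% and 12.7%. Among the 1221 peaks with the highest levels, calls in AThi HSCs were 89 higher and 73 lower, and in ATlo HSCs 73 higher and 92 lower, so that the lower ones made up more of the calls there than in the whole set. By distance, 5.57% were higher and 3.15% lower in AThi HSCs at 3 to 5 kb, and 5.57% and 2.65% at 15 to 20 kb. Downstream peaks had 5.82% higher and 2.13% lower in AThi HSCs, and upstream peaks 5.01% and 2.89%. In ATlo HSCs these were 5.97% and 1.92% downstream and 4.87% and 1.90% upstream. Peaks nearest to a lncRNA gene had 6.31% higher and 2.61% lower in AThi HSCs, against 5.04% and 2.69% for those nearest to a protein-coding gene.

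**Figure D4:**
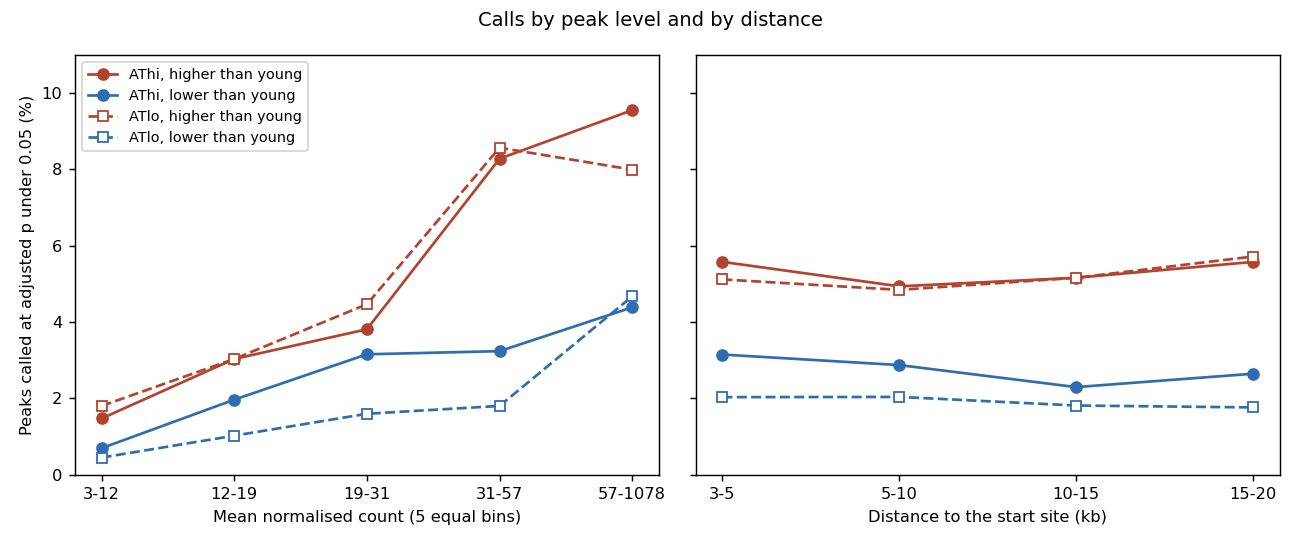
Share of the intergenic peaks (in %) called higher (red) or lower (blue) than in young HSCs, for old AThi (filled circles) and old ATlo (open squares), in 5 equal bins of the mean normalised read count on the left and by distance to the start site in kb on the right. Calls in either direction in AThi HSCs go from 2.17% in the lowest to 13.9% in the highest level bin, while they lie between 7.45% and 8.72% across distances.

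The 3 peaks just inside the limit of 20 kb lay near Zdhhc20 (-0.37 in AThi and -0.38 in ATlo against young HSCs), Trappc10 (-0.54 and -0.36) and Map10 (-0.27 and 0.35). Of these only Trappc10 in AThi HSCs was called (adjusted p = 0.0401), a call lost under both other scalings. The 3 just outside lay near Gm527 (0.06 in AThi and -0.31 in ATlo HSCs), Arhgef3 (-0.11 and -0.10) and Ypel5 (-0.46 and -0.35), and none was called.

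Finally, each intergenic peak was set beside the strongest promoter peak of the gene it was assigned to. Such a promoter peak within 1 kb of the start existed for 8721 intergenic peaks of 5275 genes, and 3485 had none. Of the 448 intergenic peaks that were higher in AThi than in young HSCs and had a promoter peak, 63 (14.1%) had a promoter that was higher too and 14 (3.12%) one that was lower. Of the 266 lower ones, 21 (7.89%) had a lower promoter and 11 (4.14%) a higher one. Among the 8007 that were not called, 8.24% had a higher and 4.38% a lower promoter. In ATlo against young HSCs, 49 of 452 higher intergenic peaks (10.8%) had a higher and 27 (5.97%) a lower promoter, and 22 of 179 lower ones (12.3%) had a lower and 3 (1.68%) a higher promoter. Among the 8090 that were not called in ATlo HSCs, 5.65% had a higher and 7.58% a lower promoter. For 489 of the 8721 pairs (5.61%) the strongest promoter peak lay over 1 kb from the start site that the intergenic peak was measured from, at another start of the gene. Across the 8721 pairs the Spearman correlation of the log2 changes was 0.12 in AThi and 0.13 in ATlo HSCs. It is given as a description: all pairs share the same libraries, several share a promoter, and the promoters had a median level of 146 against 25.6 for the intergenic peaks.

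Pairs that moved together included several genes besides the 4 shown above. Olfm3, a secreted olfactomedin gene, had an intergenic peak 13.7 kb upstream that was 4.18-fold higher in AThi and 4.18-fold higher in ATlo than in young HSCs, and its promoter changed by 2.17 and 2.18 on the log2 scale. The peak upstream of Rhbdl2, a rhomboid protease gene, was 3.34-fold higher in AThi and 3.21-fold higher in ATlo HSCs, with promoter changes of 1.16 and 1.49. The peak upstream of Thy1, a surface glycoprotein gene, was 2.11-fold higher in AThi and 2.08-fold higher in ATlo HSCs, with promoter changes of 1.74 and 1.49. Pairs called lower in both old fractions were those of Arhgap15, a Rac GTPase-activating protein gene (-0.73 in AThi and -0.55 in ATlo HSCs at the intergenic peak), of Rnu5g (-0.66 and -0.56) and of Pisd-ps1 (-0.51 and -0.57). With the promoters set to 0, Rnu5g and Pisd-ps1 lost the call in AThi and in ATlo HSCs and Arhgap15 in ATlo HSCs.

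Other pairs moved apart. The peak 9.57 kb upstream of Zfhx3, a homeobox zinc finger gene (chr8:109430967-109431710), was 3.20-fold higher in AThi (with an adjusted p of 4.79e-12 from the authors' deposited table) and 2.27-fold higher in ATlo than in young HSCs. Its promoter was lower by -0.51 in AThi and -0.50 in ATlo HSCs (adjusted p = 0.014 and 0.015). At Mef2c, a MADS-box factor gene, the peak 18.9 kb upstream was 2.68-fold higher in AThi and 3.24-fold higher in ATlo HSCs, and the strongest promoter peak, at another start of the gene 67.8 kb away from the start the distance was measured from, changed by -0.48 and -0.46. At Hsp90aa1, the inducible HSP90 chaperone gene, the intergenic peak was 1.79-fold higher in AThi and 1.62-fold higher in ATlo HSCs, and the promoter changed by -0.53 and -0.59. At Agpat3, an acyltransferase gene, it was the intergenic peak that was lower (-1.29) and the promoter that was higher (0.63) in AThi HSCs. These promoter values are to be read beside the median change of the strongest promoters, -0.22 in AThi and -0.31 in ATlo HSCs.

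**Figure D5:**
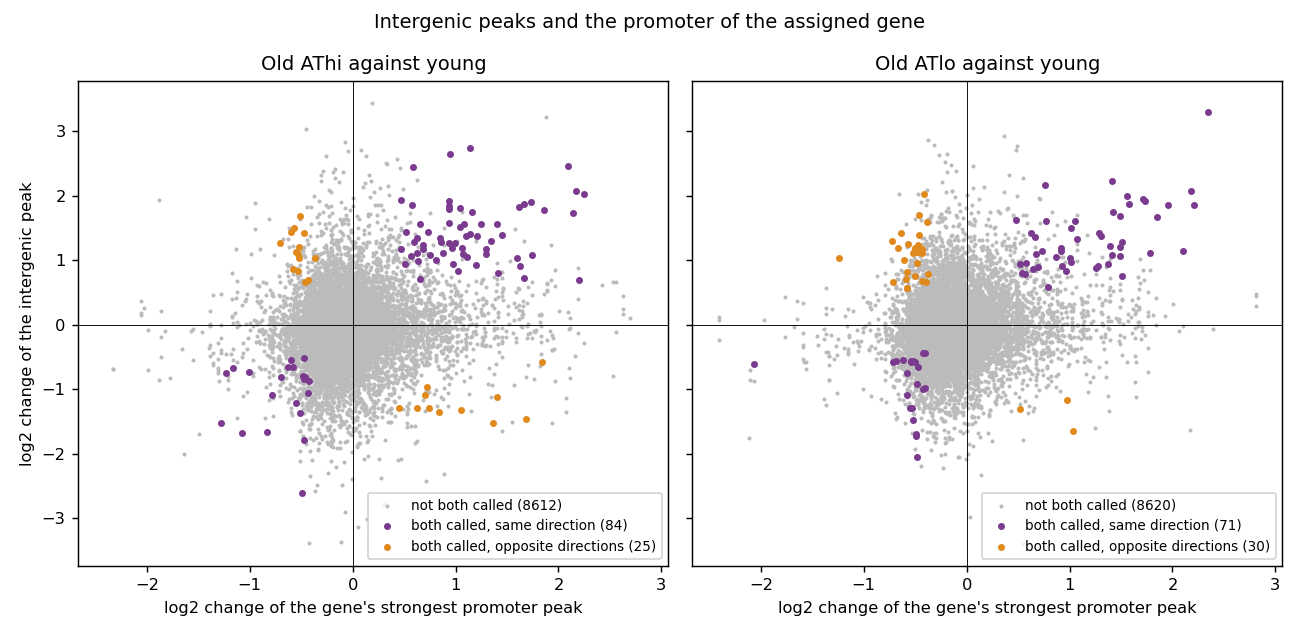
Log2 fold change of each intergenic peak (vertical axis) against that of the strongest promoter peak of its assigned gene (horizontal axis) for 8721 pairs, old AThi against young HSCs on the left and old ATlo against young HSCs on the right. Purple points are pairs in which both peaks were called in the same direction (63 higher and 21 lower in AThi HSCs), orange points pairs called in opposite directions (14 and 11 in AThi HSCs), and grey points pairs in which at most 1 was called.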

How the data were processed

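ATAC-seq peaks were compared in HSCs of 3 old AThi, 3 old ATlo and 5 young libraries. Tools named in the submitters' processing notes, without roles or settings, are cutadapt and Trim Galore, MACS2, BWA, ChIPseeker, DESeq2 and featureCounts. The treatment of Tn5 offsets and duplicates and the merging of peaks, which set where peaks lie, is not stated there. The authors' deposited mean level is a normalised read count averaged over libraries, a signal at or above 0. Both the log2 fold changes and their SEs are the authors', and the authors' Wald statistic is used as a score. Raw and adjusted p-values were taken as deposited. Peaks without an adjusted p (1831, of which 252 in the intergenic set, with levels up to 5.96) were not called. Peak width and distance are the authors' ChIPseeker values.

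The files hold 0 columns of values per library, so the edgeR test planned for counts was not run and no model was refitted. Python 3.11.15 with pandas 2.3.3, NumPy 2.4.6 and SciPy 1.17.1 was used to select and count peaks and to re-adjust p-values. The scaling on the strongest promoters and the adjustment were tested on simulated data, and the selection and counting were not. The submitters name both GRCm38 and mm39. Peaks were taken as mm39, since only 273 of 20791 matched genes end at the same base in the GRCm38.p6 RefSeq table, and 15.2% of peaks overlap the tables' own start sites against 0.480% for GRCm38 starts.

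The intergenic peaks, the gene lists and the rule for named peaks were chosen with earlier results of these data known. Named were the 12 higher and 12 lower peaks with the smallest p in each comparison with young HSCs (at least 2-fold, no predicted genes), 5 and 5 between the old fractions, the 10 highest levels, the 5 genes with most peaks, up to 5 called peaks per list and comparison, pairs called with their promoter, and 3 peaks on either side of the 20 kb limit. Peaks of Aurkb, Trim27, Fcgr4, Gm4832 and Atoh8 were named for having 3 calls. Some peaks that these rules select are not reported here. Alternatives were an adjusted p under 0.01, a minimum change of 2-fold, adjustment without and with a filter on low levels, and 2 other scalings.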

Additional observations from a re-analysis of the deposited data

How the results depend on the processing

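Under all 6 alternatives the intergenic peaks kept more higher than lower calls in AThi and in ATlo against young HSCs, and AThi against ATlo HSCs gave 0 calls throughout. Counts moved by over 1.5 times as follows. At an adjusted p under 0.01, lower calls came to 113 in AThi HSCs, and ATlo HSCs had 384 higher and 89 lower calls. With a minimum change of 2-fold there were 418 higher and 174 lower calls in AThi and 383 higher and 87 lower in ATlo HSCs. With the median of the strongest promoters set to 0 there were 1279 higher and 123 lower in AThi and 1680 higher and 48 lower in ATlo HSCs, and the median change of the set turned from -0.09 to 0.13 in AThi and from -0.08 to 0.23 in ATlo HSCs. With the median of all peaks set to 0 counts moved by less than 1.5 times, to 717 higher and 249 lower in AThi (74.2% higher) and 685 and 194 in ATlo HSCs (77.9%), as they did with adjustment over all peaks and with a minimum level of 20. Of 157 named peaks 121 were called in AThi and 113 in ATlo HSCs, and none changed direction where called. No paired analysis was possible because the files hold no values per library, and leaving out libraries or other size factors was not run for the same reason. Low levels came with wide SEs, and depth per library is unknown.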
